A study of Mus musculus with 4 samples.

Results

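The purinergic receptors and nucleotide-clearing enzymes described here are 8 genes, found by their symbols among the 32285 gene rows of each deposited count matrix: P2ry12, P2ry13, P2ry6, P2rx4, P2rx7, Gpr34, Adora3 and Entpd1. All 8 were present under 1 gene identifier each. They were chosen by name for their known roles, with earlier results on these samples in view, and no measured threshold entered the choice. Their raw UMI counts (unique molecular identifiers, each standing for 1 captured transcript) were followed in every cell of 4 libraries.

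The study, by its title, concerns the cytokine IL-6 from monocytes and its action on microglia, the resident macrophages of the brain, after damage to brain vessels. Cerebrovascular injury (CVI) was made by pulsed ultrasound through a thinned skull after intravenous microspheres, and CD11b-positive cells were taken with magnetic beads from a 4 mm tissue punch on day 6. Droplet single-cell RNA sequencing with 3′ tags was then done on 1 mouse per group, aged 8 to 12 weeks. The 4 groups, each 1 mouse, are labelled IL-6 KO (-/-) with CVI, IL-6 KO with sham injury, IL-6 WT (+/+) with CVI, and IL-6 WT with sham injury. One label places the controls on day 6 after sham surgery and another calls them uninjured. Mild and severe forms of CVI are both described in the protocols, and which of them these mice had is not stated. The deleted part of Il6 is not named, and no Cre driver or cell type is given for the knockout.

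Extracellular ATP and ADP leak from damaged cells and vessels and are read by microglia as a danger signal. The ADP receptor P2ry12 directs microglial processes towards such sites, the UDP receptor P2ry6 is tied to engulfment, and the ATP-gated channels P2rx4 and P2rx7 open when ATP is present, P2rx7 only when it is abundant. Surface enzymes end the signal: Entpd1 (CD39) cuts ATP and ADP to AMP, which further enzymes turn into adenosine, the ligand of Adora3. Gpr34 is related to P2ry12 and P2ry13 by sequence family but responds to lysophosphatidylserine, a lipid, rather than to a nucleotide.

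Several members lie next to each other in the genome (mm10, equal to GRCm38, with GENCODE vM21 positions). P2ry13 (chromosome 3, 59207892 to 59210882, minus strand) and P2ry12 (chromosome 3, 59216272 to 59262871, minus strand) are 5.39 kb apart, and both lie inside Med12l, which is read from the opposite strand. P2rx7 (chromosome 5, 122643911 to 122691432, plus strand) and P2rx4 (chromosome 5, 122707544 to 122729738, plus strand) are 16.1 kb apart. P2ry6 is on chromosome 7 (100937630 to 100974649, minus strand), Gpr34 on chromosome X (13632089 to 13640858, plus strand, inside Cask on the opposite strand), Adora3 on chromosome 3 (105870858 to 105908926, plus strand) and Entpd1 on chromosome 19 (40612366 to 40741602, plus strand). Med12l had between 188 and 377 UMIs in the microglia of each library, against 15619 or more for P2ry12. Adora3 shares exons on the same strand with Tmigd3, so reads of the shared part could be split between them or dropped, and the Adora3 level is uncertain for that reason. Tmigd3 itself had 32, 6, 42 and 11 UMIs in the microglia of the KO-labelled CVI, KO-labelled sham, WT CVI and WT sham libraries.

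The 250 bases before the RefSeq start (build GRCm38.p6) are shown for the adjacent pair of ADP receptors, which were both lower after injury in microglia, and for P2rx4, which was higher. Capitals mark GAGGAA, the core bound by PU.1-type factors, or CACGTG, an E-box core, on either strand; the motifs do not overlap here.
P2ry12, chr3:59262986-59263235, minus strand: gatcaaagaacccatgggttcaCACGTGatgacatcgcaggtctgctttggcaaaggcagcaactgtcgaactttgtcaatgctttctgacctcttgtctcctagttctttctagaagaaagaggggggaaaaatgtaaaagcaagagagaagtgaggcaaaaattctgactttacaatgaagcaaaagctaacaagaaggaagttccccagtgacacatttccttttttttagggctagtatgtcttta
P2ry13, chr3:59210883-59211132, minus strand: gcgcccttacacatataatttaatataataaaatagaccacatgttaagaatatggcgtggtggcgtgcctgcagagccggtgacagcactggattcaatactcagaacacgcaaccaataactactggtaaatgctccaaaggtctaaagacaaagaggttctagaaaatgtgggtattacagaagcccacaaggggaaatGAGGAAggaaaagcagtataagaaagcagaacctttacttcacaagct
P2rx4, chr5:122707294-122707543, plus strand: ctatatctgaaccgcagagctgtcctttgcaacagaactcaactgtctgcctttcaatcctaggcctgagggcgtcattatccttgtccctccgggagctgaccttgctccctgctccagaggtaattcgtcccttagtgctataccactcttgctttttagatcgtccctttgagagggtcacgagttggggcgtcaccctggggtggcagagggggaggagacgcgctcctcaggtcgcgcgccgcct
The P2ry13 window holds 1 GAGGAA, which begins 48 bases before the start, and the P2ry12 window holds 1 CACGTG. The P2rx4 window holds neither. Of all 32841 RefSeq windows of this length, 23.3% hold GAGGAA and 6.02% hold CACGTG. RefSeq windows were at hand for 6 of the 8 members with 8 starts in all, of which 3 hold GAGGAA (P2ry13, Adora3 and the second Entpd1 start) and 1 holds CACGTG. P2ry6 and Gpr34 are the members with no window shown.

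After the filters on genes, UMIs and mitochondrial share, 2549 KO-labelled CVI, 1362 KO-labelled sham, 2883 WT CVI and 957 WT sham cells remained, with median depths of 7638 to 10016 UMIs. The labels state an aim of 4000 cells per sample, and the files held 2682 to 4731 barcodes per library. Il6 itself was at 22.0 and 25.3 CPM (counts per 1000000 UMIs) in the KO-labelled CVI and sham libraries, against 4.65 and 10.6 CPM in the WT CVI and sham libraries. Since a 3′ tag outside the deleted part would not report the deletion, the genotype labels remain unchecked. For this reason the libraries carry the name KO-labelled, and no direction between genotype labels is read as an effect of IL-6. In all, 25 cell barcodes were found in more than 1 library, 19 of them in the 2 sham libraries, which is the highest number for any pair. Leaving those cells out changed no member count reported here.

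Cells were sorted into classes by the level of marker genes that include no member. Microglia numbered 2210, 1161, 2013 and 749 cells in the KO-labelled CVI, KO-labelled sham, WT CVI and WT sham libraries. Macrophages rich in Lyz2 and Ms4a7, a monocyte-derived profile, numbered 58, 8, 479 and 11 in the same order, border macrophages (Mrc1, Pf4 and related markers) 53, 55, 51 and 68, and endothelial cells 127, 46, 78 and 28. All 12 microglia markers were detected in the microglia of every library, and these cells form the largest class of each library. Endothelial cells are not known to carry CD11b, the protein used for selection. Each group is 1 library of 1 mouse, so no p-value is given and cells are not treated as replicates. A fit of injury across both genotype labels was not made. Within a class, CPM is the UMI sum of a gene relative to all UMIs of that class. Intervals are exact 95% intervals (Poisson for CPM, conditional binomial for a ratio, Clopper-Pearson for a share) and cover counting error only, not differences between mice.

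**Figure D1:**
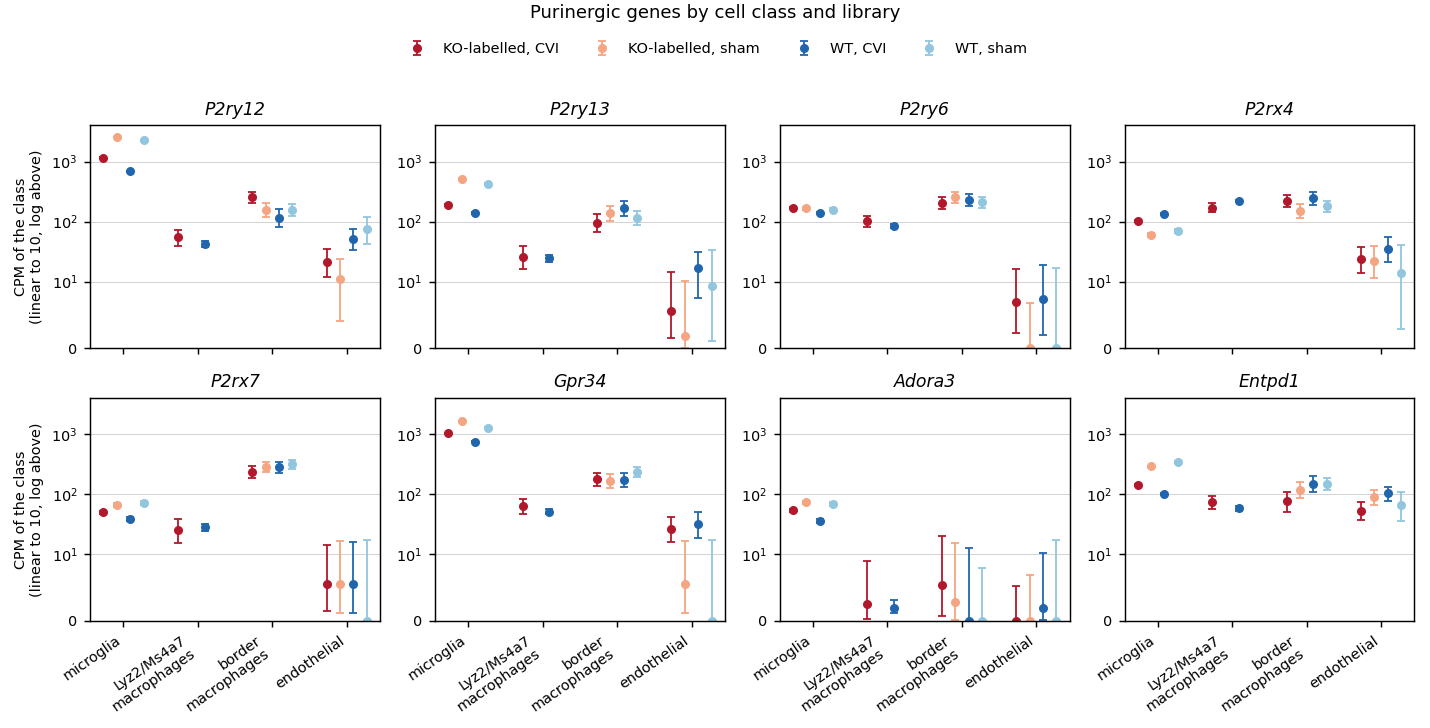
Level of each gene (CPM, linear to 10 and logarithmic above) by cell class, with 1 point per library and exact 95% Poisson bars; classes of fewer than 20 cells (the 2 sham libraries of Lyz2/Ms4a7 macrophages) are not drawn. P2ry12, P2ry13, Gpr34 and Entpd1 are lower in CVI than in sham microglia, P2rx4 is higher, and P2rx7 is highest in border macrophages.

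Among the ADP receptors, P2ry12 was at 1158 CPM in KO-labelled CVI microglia and 2565 CPM in KO-labelled sham microglia, and at 689 CPM in WT CVI microglia and 2269 CPM in WT sham microglia. Both CVI libraries lay below both sham libraries, and none of the 4 intervals overlapped. P2ry12 was 2.21-fold lower after CVI in the KO-labelled pair (interval 2.18 to 2.25) and 3.29-fold lower in the WT pair (3.22 to 3.36). P2ry13, a closely related ADP receptor, was at 188 CPM in KO-labelled CVI and 515 CPM in KO-labelled sham microglia, and at 141 CPM in WT CVI and 426 CPM in WT sham microglia. It was 2.74-fold lower after CVI in the KO-labelled pair (2.63 to 2.85) and 3.03-fold lower in the WT pair (2.89 to 3.18). Again both CVI libraries lay below both sham libraries.

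Entpd1, the enzyme that removes ATP and ADP, was at 139.8 CPM in KO-labelled CVI and 288 CPM in KO-labelled sham microglia, and at 101 CPM in WT CVI and 347 CPM in WT sham microglia. It was 2.06-fold lower after CVI in the KO-labelled pair (1.96 to 2.17) and 3.44-fold lower in the WT pair (3.25 to 3.63). On the log2 scale with a prior of 10 CPM, the scale used for calls, the KO-labelled difference was -0.99, just short of the 2-fold size, and the WT difference was -1.69.

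The lipid receptor Gpr34 was at 1024 CPM in KO-labelled CVI and 1623 CPM in KO-labelled sham microglia, and at 742 CPM in WT CVI and 1282 CPM in WT sham microglia. It was 1.58-fold lower after CVI in the KO-labelled pair (1.55 to 1.62) and 1.73-fold lower in the WT pair (1.69 to 1.77). Gpr34 moved in the same direction as the ADP receptors and by less. The adenosine receptor Adora3 was at 53.5 CPM in KO-labelled CVI and 72.4 CPM in KO-labelled sham microglia, and at 35.8 CPM in WT CVI and 67.8 CPM in WT sham microglia, both CVI libraries again below both sham libraries. Adora3 was lower after CVI by 1.35-fold in the KO-labelled pair (1.24 to 1.48) and by 1.90-fold in the WT pair (1.70 to 2.11).

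The 2 ATP-gated channels went opposite ways. P2rx4 was at 102 CPM in KO-labelled CVI and 59.8 CPM in KO-labelled sham microglia, and at 134 CPM in WT CVI and 68.9 CPM in WT sham microglia. It was the one member above sham in both CVI libraries with intervals clear of no change, at a ratio of 1.71 in the KO-labelled pair (1.57 to 1.87) and 1.95 in the WT pair (1.78 to 2.14). How many of all genes had such intervals was not counted, so this is not read as particular to P2rx4. P2rx7, which opens at high ATP and drives inflammasome activation, was at 49.9 CPM in KO-labelled CVI and 66.5 CPM in KO-labelled sham microglia, and at 38.5 CPM in WT CVI and 71.7 CPM in WT sham microglia. P2rx7 was lower after CVI by 1.33-fold in the KO-labelled pair (1.21 to 1.46) and by 1.86-fold in the WT pair (1.68 to 2.07). The UDP receptor P2ry6 was at 171 CPM in KO-labelled CVI and 165 CPM in KO-labelled sham microglia, and at 141 CPM in WT CVI and 158 CPM in WT sham microglia, the smallest difference of the 8 in each pair under scaling by UMI total. Under median-of-ratios scaling P2rx7 (log2 -0.07) and Adora3 (-0.09) differed less than P2ry6 (0.36) in the KO-labelled pair. The P2ry6 ratio was 1.03 in the KO-labelled pair (0.978 to 1.09), with no change inside the interval, and 0.890 in the WT pair (0.834 to 0.950), and the WT direction turned round under median-of-ratios scaling (log2 0.28 in place of -0.16).

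**Figure D2:**
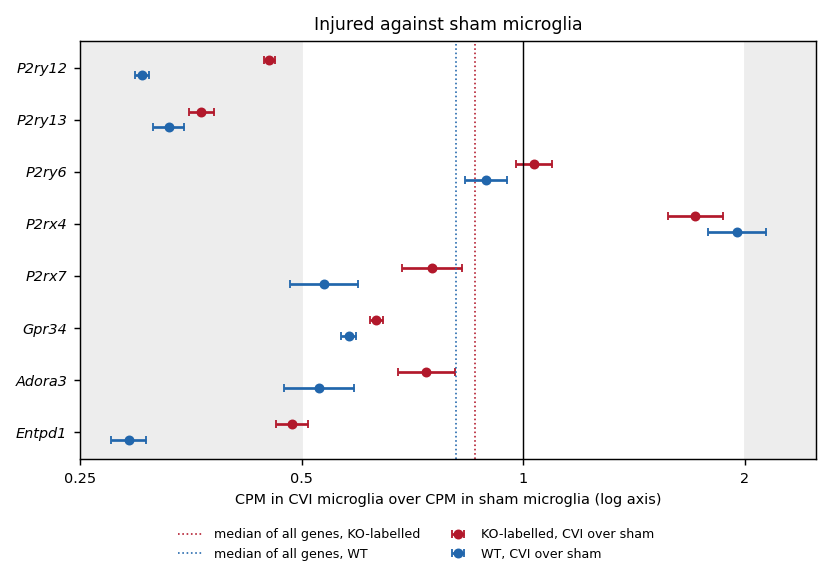
Ratio of CPM in CVI microglia over sham microglia (log axis) with exact 95% intervals for counting error, KO-labelled pair above the WT pair for each gene; shading marks 2-fold and dotted lines the median of all genes tested. P2ry12 and P2ry13 lie past 2-fold lower in both pairs and P2rx4 lies right of 1 in both.

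At 2-fold on the log2 scale, 2 of 8 members (P2ry12 and P2ry13) were called lower in the KO-labelled pair, where 1.64% of all 6155 genes tested were called lower, and none was called higher, where 2.65% of all genes were. In the WT pair 3 of 8 (P2ry12, P2ry13 and Entpd1) were called lower, against 8.59% of 6242 genes, and none higher, against 3.86%. The median log2 ratio over the 8 members was -0.52 in the KO-labelled pair and -0.77 in the WT pair, whereas over all genes tested it was -0.22 and -0.31. In the KO-labelled pair 6 of 8 members and 4420 of 6155 genes lay below sham. In the WT pair 7 of 8 members and 4349 of 6242 genes did. The scaling moved all genes together: median-of-ratios scaling raised the all-gene median by 0.29 in the KO-labelled pair and by 0.42 in the WT pair, and it took the share of calls that were higher to 88.6% in place of 61.7% in the KO-labelled pair and to 79.7% in place of 31.0% in the WT pair. Relative to the all-gene median, P2ry12 was at -0.92 in the KO-labelled pair and -1.40 in the WT pair, P2ry13 at -1.19 and -1.23, Entpd1 at -0.78 and -1.38, Gpr34 at -0.44 and -0.48, Adora3 at -0.16 and -0.46, P2rx7 at -0.14 and -0.45, P2ry6 at 0.26 and 0.15, and P2rx4 at 0.90 and 1.18.

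Markers of other classes and dissociation-responsive genes also differed between CVI and sham inside the microglia gate, and border macrophage markers did so in opposite directions in the 2 pairs. The summed level of the 10 Lyz2/Ms4a7 macrophage markers was 1821 CPM in KO-labelled CVI and 384 CPM in KO-labelled sham microglia, and 4288 CPM in WT CVI and 584 CPM in WT sham microglia, mostly Lyz2. All 10 markers had UMIs except in the KO-labelled sham library, where Gpnmb and Ly6c2 were at 0. The 10 border macrophage markers summed to 159.5 CPM in KO-labelled CVI, 203 CPM in KO-labelled sham, 420.2 CPM in WT CVI and 229 CPM in WT sham microglia, with Cd163 and Lyve1 at 0 in KO-labelled sham. The 14 dissociation-responsive genes, induced by tissue digestion, summed to 18520 CPM in KO-labelled CVI, 26412 CPM in KO-labelled sham, 16040 CPM in WT CVI and 26191 CPM in WT sham microglia. The 6 neuron markers summed to 18.9, 141, 16.1 and 143 CPM in the same order. Their part in the results was not tested. With the stricter gate, which keeps cells whose microglia score leads by a wider margin, the log2 difference of P2ry12 was -1.12 in the KO-labelled pair and -1.51 in the WT pair.

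For P2ry12, P2ry13, Entpd1 and P2rx4, the share of cells with a UMI at even depth put the 4 libraries in the same order as CPM. Each cell was thinned to 3000 UMIs, which left out 238 KO-labelled CVI, 172 KO-labelled sham, 147 WT CVI and 131 WT sham microglia with fewer. P2ry12 was then seen in 89.8% of KO-labelled CVI and 99.4% of KO-labelled sham microglia, and in 79.3% of WT CVI and 98.7% of WT sham microglia. Without thinning, over all microglia, these shares were 94.8% in KO-labelled CVI, 96.7% in KO-labelled sham, 94.1% in WT CVI and 94.5% in WT sham. Over the cells with at least 3000 UMIs, again without thinning, they were 98.7% in KO-labelled CVI, 97.2% in WT CVI and 100% in both sham libraries. P2ry13 was seen in 44.8% of KO-labelled CVI and 77.4% of KO-labelled sham microglia, and in 37.8% of WT CVI and 71.5% of WT sham microglia. Entpd1 was seen in 35.3% and 56.1% of the KO-labelled pair and in 28.5% and 62.1% of the WT pair, CVI before sham. P2rx4 was seen in 23.5% of KO-labelled CVI and 15.4% of KO-labelled sham microglia, and in 28.8% of WT CVI and 18.4% of WT sham microglia.

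The same shares were taken in endothelial cells, a class that expresses Entpd1 but is not known for P2ry12. Endothelial cells, with median depths of 4305 to 6617 UMIs against 8383 to 9095 in microglia, had a P2ry12 UMI in 9 of 100 KO-labelled CVI cells and in 4.88% of KO-labelled sham, 13.8% of WT CVI and 30.8% of WT sham cells after the same thinning. The last of these is 8 of 26 cells. A P2rx4 UMI was seen in 8 of 100 KO-labelled CVI endothelial cells, in 4.88% of KO-labelled sham, 10.3% of WT CVI and 3.85% of WT sham endothelial cells, and P2rx7 in at most 2.44%. The microglial shares of P2ry12, P2ry13, P2rx4 and P2rx7 lay above the endothelial share of the same gene in each library. The 8 members together gave a median of 4 detected members per thinned cell in KO-labelled CVI, 4 in KO-labelled sham, 3 in WT CVI and 4 in WT sham microglia. At least 4 members were detected in 50.7%, 75.0%, 41.4% and 73.3% of those cells.

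**Figure D3:**
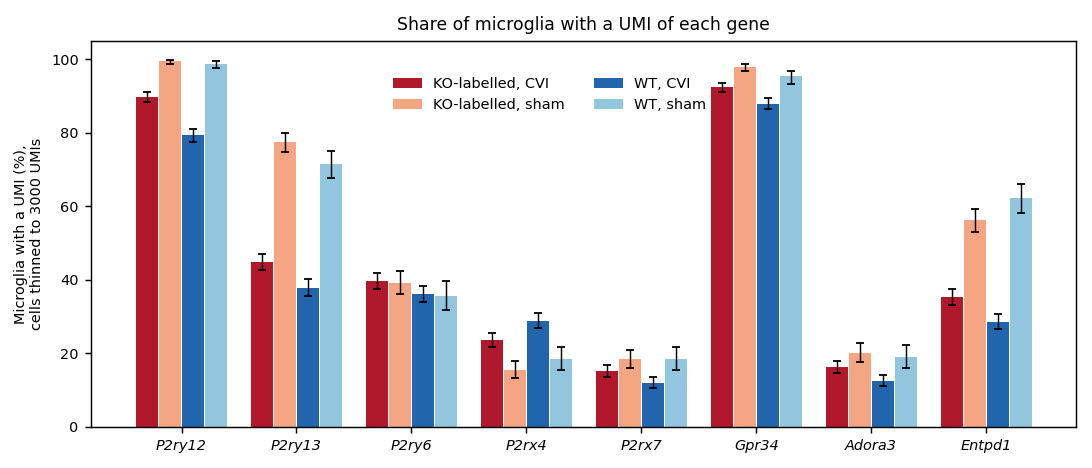
Share of microglia with at least 1 UMI of each gene after every cell was thinned to 3000 UMIs, by library, with exact 95% Clopper-Pearson bars. P2ry13 and Entpd1 differ most between CVI and sham, while P2ry6 shares lie between 35.6% and 39.8% in all 4 libraries.

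Between the injured libraries, 7 of 8 members were higher in KO-labelled than in WT microglia, and P2rx4 was lower. Of all 5395 genes tested, 1681 were lower in KO-labelled microglia under scaling by UMI total, so most genes lay on the higher side as well. Under median-of-ratios scaling the all-gene median log2 ratio was -0.02, while each member kept its direction. Among the members P2ry12 had the largest difference, at a ratio of 1.68 (1.65 to 1.72). Adora3 followed at log2 0.47 (ratio interval 1.37 to 1.64). The ratios were lower for the rest: Entpd1 at 1.39 (1.31 to 1.46), Gpr34 at 1.38 (1.35 to 1.41), P2ry13 at 1.34 (1.28 to 1.40), P2rx7 at 1.30 (1.19 to 1.42) and P2ry6 at 1.21 (1.16 to 1.27). P2rx4 was 1.31-fold lower in KO-labelled microglia (1.24 to 1.38). None of these passed 2-fold in either direction, where 0.0741% of 5395 genes were called higher and 0.649% lower, and the median log2 ratio was 0.41 over the members and 0.08 over all genes tested.

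Between the sham libraries the members lay closer together. Gpr34 was higher in KO-labelled sham microglia at a ratio of 1.27 (1.24 to 1.30), P2ry13 at 1.21 (1.16 to 1.26) and P2ry12 at 1.13 (1.11 to 1.15), while Entpd1 was 1.20-fold lower (1.14 to 1.26) and P2rx4 1.15-fold lower (1.03 to 1.29). For P2ry6, P2rx7 and Adora3 the interval of the ratio included 1. None was called at 2-fold, where 0.065% of 6157 genes were called higher and 0.0975% lower. The difference of the 2 injury effects, KO-labelled minus WT, was positive for 7 of 8 members, at log2 0.69 for Entpd1, 0.56 for P2ry12, 0.40 for P2rx7, 0.39 for Adora3, 0.20 for P2ry6, 0.13 for P2ry13 and 0.12 for Gpr34, and it was -0.18 for P2rx4. The count was 6 of 8 under median-of-ratios scaling, where Gpr34 was at -0.0032, and 5 of 8 with cells weighted equally, where P2ry13 was at -0.0024 and Gpr34 at -0.04. Over the 6413 genes tested the median difference was 0.08 under scaling by UMI total, so most genes lay on the positive side as well. The share of positive genes was not counted, so the 7 of 8 are not read as particular to the members. The differences use the same 4 libraries as the comparisons above and were not tested.

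Levels also differed between states of microglia within 1 library. Cells were clustered without the members among the genes used, and the microglia of the sham libraries fell mainly into the clusters led by Nrgn, by Slc5a3 with Ints6, and by Hspa1b, while those of the CVI libraries fell mainly into clusters led by Cst7 with Ccl9, Il1a, Ifit3, Lpl and, in the WT CVI library, Cd5l. P2ry13 and P2ry12 themselves are among the 10 leading genes of the Hspa1b cluster, so their high level there is no independent finding. The Cd5l cluster did not reach a class name of its own, and 241 of its 357 cells passed the microglia gate. Of the 357 cells, 331 were from WT CVI and 26 from KO-labelled CVI. Within the WT CVI library, P2ry12 ranged 8.03-fold over 9 clusters, from 239 CPM in the cluster led by Cd5l and Spp1 to 1921 CPM in the cluster led by Hspa1b. Within the KO-labelled CVI library it ranged 4.17-fold over 8 clusters, from 519 CPM in the cluster led by Lpl to 2162 CPM in the cluster led by Hspa1b. P2rx4 ran the other way in the WT CVI library, from 69.9 CPM in the Hspa1b cluster to 174 CPM in the Cd5l cluster. Entpd1 spanned 48.8 CPM in the Cd5l cluster to 223 CPM in the Hspa1b cluster of that library, and Adora3 spanned 14.4 to 82.1 CPM over the same clusters. Over those 9 clusters, the Pearson correlation of log2(CPM + 10) with Apoe, a lipid carrier raised in reactive microglia, was -0.89 for P2ry12, -0.92 for P2ry13, -0.87 for Entpd1, -0.87 for Gpr34 and 0.97 for P2rx4. For P2ry6 it was -0.51. Over the 8 clusters of the KO-labelled CVI library the correlation was -0.90 for P2ry12, -0.89 for P2ry13, -0.73 for Entpd1, -0.83 for Gpr34, 0.60 for P2rx4 and -0.11 for P2ry6, and P2rx4 was lowest there in the cluster led by Cst7 and Ccl6, at 51.2 CPM. The clusters of each correlation share 1 library and differ in depth.

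**Figure D4:**
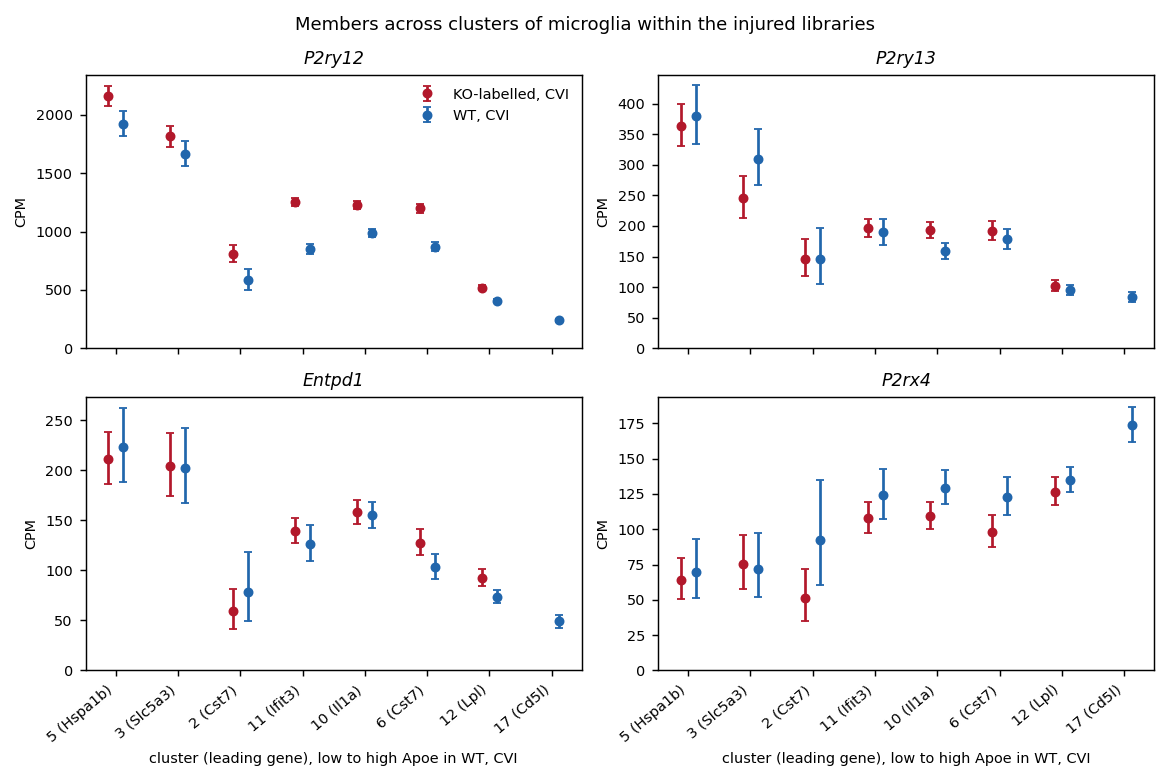
Level (CPM) of P2ry12, P2ry13, Entpd1 and P2rx4 in clusters of microglia within the KO-labelled CVI and WT CVI libraries, for clusters with at least 50 cells (1 such cluster is not drawn), ordered from low to high Apoe, with exact 95% Poisson bars. P2ry12, P2ry13 and Entpd1 are lowest in WT in the Cd5l cluster, where Apoe is highest, and P2rx4 is highest there, at 174 CPM against 69.9 CPM in the Hspa1b cluster.

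Where a cluster held at least 50 microglia of both libraries of a pair, CVI and sham cells could be set side by side within it. In the cluster led by Slc5a3, P2ry12 was at 1815 CPM in KO-labelled CVI and 2594 CPM in KO-labelled sham cells, and at 1668 CPM in WT CVI and 2394 CPM in WT sham cells. In the cluster led by Hspa1b it was at 2162 CPM in KO-labelled CVI and 2874 CPM in KO-labelled sham cells, and at 1921 CPM in WT CVI and 2427 CPM in WT sham cells. The log2 difference of P2ry12 inside these 2 clusters thus lay between -0.52 and -0.34, against -1.14 and -1.71 over all microglia. Between the KO-labelled and the WT CVI library, P2ry12 also differed less inside these 2 clusters than over all microglia. Across the clusters of each CVI library P2ry12 followed Tmem119, a microglia marker of the gate (correlation 0.99). Grouping cells by like expression can thus itself narrow a P2ry12 difference. The reason for the smaller differences inside these 2 clusters was not tested. P2rx4 inside the same clusters was at 75.2 CPM in KO-labelled CVI and 65.5 CPM in KO-labelled sham cells and at 72.0 CPM in WT CVI and 68.5 CPM in WT sham cells of the Slc5a3 cluster, and its log2 difference was at most 0.21 in these 2 clusters. P2ry13 was also lower after CVI in both clusters, at 246 CPM in KO-labelled CVI and 502 CPM in KO-labelled sham cells of the Slc5a3 cluster and at 310.3 CPM in WT CVI and 426 CPM in WT sham cells. The log2 difference of Entpd1 lay between -0.80 and -0.41 in both clusters and pairs. P2rx7 and Adora3 changed sign between these clusters in at least 1 pair. In a shallow cluster led by Cst7 and Ccl6, with a median of 2121 UMIs, P2ry12 was at 809 CPM in KO-labelled CVI and 1578 CPM in KO-labelled sham cells (log2 -0.95). In the WT libraries it was at 585 CPM in CVI and 1467 CPM in sham cells of this cluster (log2 -1.31). P2rx4 there was at 51.2 CPM in KO-labelled CVI cells and had no UMI in KO-labelled sham cells, and it was at 92.2 CPM in WT CVI and 21.5 CPM in WT sham cells (log2 1.70).

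Against the Lyz2/Ms4a7 macrophages of the same library, 7 of 8 members were higher in microglia, and P2rx4 was lower. Of all genes tested, 2240 of 5793 in the KO-labelled CVI library and 1760 of 5426 in the WT CVI library were lower in microglia. Most genes thus lay on the higher side as well. P2ry12 was at 1158 CPM in KO-labelled CVI microglia and 54.3 CPM in KO-labelled CVI macrophages, and at 689 CPM in WT CVI microglia and 42.4 CPM in WT CVI macrophages. Gpr34 was at 1024 against 63.0 CPM and at 742 against 50.4 CPM, and Adora3 at 53.5 against 2.47 CPM and at 35.8 against 1.91 CPM, in the KO-labelled and the WT CVI library. P2rx4 was 1.67-fold lower in microglia than in these macrophages in the KO-labelled CVI library (1.40 to 1.99) and 1.65-fold lower in the WT CVI library (1.55 to 1.75). At 2-fold, P2ry12, P2ry13, Gpr34 and Adora3 were called higher in microglia in each library, 4 of 8 members, where 8.87% of genes in the KO-labelled library and 7.63% in the WT library were called higher, and none was called lower, where 5.78% and 4.42% were. Of these, Adora3 reached the filter of 20 CPM in microglia alone, so only a higher call was open to it. P2ry6, P2rx7 and Entpd1 differed by less: the Entpd1 ratio was 1.92 (1.48 to 2.53) and 1.75 (1.59 to 1.94). None of the 7 members tested differed by 2-fold between KO-labelled and WT CVI macrophages, where 1.78% of genes were called higher and 0.824% lower. Adora3 lay below the filter of 20 CPM there and could not be called. P2rx4 was at 172 CPM in KO-labelled and 221 CPM in WT CVI macrophages.

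Border macrophages, which sit along vessels and meninges, held the same receptors as microglia apart from Adora3, with Entpd1 in KO-labelled CVI the lowest of the other members at 76.0 CPM, and with higher levels of the ATP-gated channels than microglia. P2rx7 was at 49.9 CPM in microglia and 233 CPM in border macrophages of the KO-labelled CVI library, at 66.5 and 286 CPM in KO-labelled sham, at 38.5 and 278 CPM in WT CVI, and at 71.7 and 312 CPM in WT sham, microglia first. Microglia were lower by 4.68-fold in KO-labelled CVI (3.71 to 5.83) and 4.30-fold in KO-labelled sham (3.48 to 5.29). In the WT libraries they were lower by 7.22-fold with CVI (5.69 to 9.07) and by 4.36-fold with sham (3.61 to 5.23). The 4 border macrophage values of P2rx7 overlapped in their intervals, and all lay above every microglial value. The background of lower calls in microglia against border macrophages was 8.73% of genes in KO-labelled CVI, 6.98% in KO-labelled sham, 11.2% in WT CVI and 6.48% in WT sham. With classes from named clusters the log2 difference of P2rx7 was -1.19 in KO-labelled CVI, against -2.02 with the gate, -1.37 in KO-labelled sham, against -1.95, -1.91 in WT CVI, against -2.57, and -1.41 in WT sham, against -1.98. P2rx4 was called lower in microglia in 3 libraries and was 1.82-fold lower (1.42 to 2.29) in WT CVI. The P2rx4 call ended with classes from named clusters in KO-labelled CVI (log2 -0.44) and KO-labelled sham (-0.58), and under median-of-ratios scaling in KO-labelled CVI (-0.80). P2ry6 was lower in microglia than in border macrophages in all 4 libraries, with ratios of 0.840 in KO-labelled CVI (0.669 to 1.07), 0.652 in KO-labelled sham, 0.611 in WT CVI and 0.760 in WT sham, and none was called. With classes from named clusters the P2ry6 difference turned to log2 0.17 in KO-labelled CVI. P2ry12, Gpr34 and Adora3 were called higher in microglia in each library, against a background of 6.88% of genes in KO-labelled CVI, 10.6% in KO-labelled sham, 6.28% in WT CVI and 10% in WT sham. Only its microglial level took Adora3 past the filter of 20 CPM, so a lower call was not possible for it. Adora3 had 2, 1, 0 and 0 UMIs in the border macrophages of KO-labelled CVI, KO-labelled sham, WT CVI and WT sham, and the upper Poisson limits at a count of 0 are 12.5 CPM in WT CVI and 7.84 CPM in WT sham. P2ry13 and Entpd1 were called higher in microglia of both sham libraries; in WT CVI, where their microglial level was lowest, P2ry13 was at 141 CPM in microglia and 169 CPM in border macrophages and Entpd1 at 101 and 149 CPM. 

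Within the border macrophages, with 51 to 68 cells per library, P2ry12 was at 255 CPM in KO-labelled CVI (94 UMIs) and 115 CPM in WT CVI (34 UMIs), a ratio of 2.21 (1.48 to 3.38). A single KO-labelled CVI cell held 22 of the 94 UMIs. With the highest cell of each library left out, the ratio was 1.84 (1.20 to 2.89), at log2 0.83 below the 2-fold call, and with cells weighted equally log2 was 0.78. In the main count P2ry12 was the 1 member called higher of the 7 tested, where 1.64% of 4202 genes were called, and none was called lower, where 1.78% were. Adora3 did not pass the filter there and could not be called. The P2ry12 values in KO-labelled sham and WT sham border macrophages were 155 and 157 CPM. The 12 microglia markers moved with P2ry12, summing to 3735 CPM in KO-labelled CVI, 2769 CPM in KO-labelled sham, 2369 CPM in WT CVI and 2805 CPM in WT sham border macrophages, with Tmem119 at 0 in WT CVI and Sall1 at 0 in KO-labelled sham. Gpr34, which is also high in microglia, was at 176 CPM in KO-labelled CVI and 173 CPM in WT CVI border macrophages. The part of microglial RNA in the P2ry12 value was not tested.

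Endothelial cells held few member UMIs apart from Entpd1, which vessel lining cells are known to carry. Entpd1 was at 53.0 CPM in KO-labelled CVI, 89.0 CPM in KO-labelled sham, 103 CPM in WT CVI and 64.8 CPM in WT sham endothelial cells, from 38, 48, 56 and 14 UMIs. In the same cells P2ry12 had 15, 6, 28 and 16 UMIs. In microglia P2ry12 exceeded Entpd1 in UMIs in every library, whereas in endothelial cells Entpd1 exceeded P2ry12 in 3 of 4, all but WT sham. The part of microglial RNA in these endothelial values was not tested. Entpd1 was at 101 CPM in microglia and 103 CPM in endothelial cells of WT CVI, a ratio of 0.981 (0.753 to 1.30).

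Of 47 other genes of nucleotide signalling on a list chosen by role, 15 reached 20 CPM in microglia of at least 1 library. None of the 10 other nucleotide receptors and none of the 3 other adenosine receptors did. Among the purine enzymes and transporters, Pnp, which breaks down inosine and guanosine, was at 299 CPM in KO-labelled CVI and 515 CPM in KO-labelled sham microglia, and at 247 CPM in WT CVI and 482 CPM in WT sham microglia. The nucleoside transporters Slc29a1 and Slc29a3 were also below sham in both pairs, by log2 -0.38 and -0.34 in the KO-labelled pair and -0.53 and -0.93 in the WT pair. Of the genes that act after P2ry12, Pik3cg, a phosphoinositide kinase, was at 73.0 CPM in KO-labelled CVI and 125 CPM in KO-labelled sham, and at 58.0 CPM in WT CVI and 129 CPM in WT sham microglia, and was called lower in the WT pair. Kcnk13, the potassium channel THIK-1, was at 71.0 CPM in KO-labelled CVI, 69.0 CPM in KO-labelled sham, 61.8 CPM in WT CVI and 62.3 CPM in WT sham, with ratio intervals that included 1 in both pairs.

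In the inflammasome group, Il1b was called higher in both pairs, at 857 CPM in KO-labelled CVI and 160 CPM in KO-labelled sham, and at 1005 CPM in WT CVI and 234 CPM in WT sham microglia. Pycard, the adaptor, was at 516 CPM in KO-labelled CVI and 317 CPM in KO-labelled sham, and at 544 CPM in WT CVI and 295 CPM in WT sham microglia, short of the call. Casp1 had ratio intervals that included 1 in both pairs, Gsdmd was at a ratio of 0.884 in the KO-labelled pair and 0.865 in the WT pair, and Nlrp3 was at a ratio of 1.29 in the KO-labelled pair and 1.04 in the WT pair. In all, 1 of the 15 genes was called higher in each pair, none was called lower in the KO-labelled pair and 1 was called lower in the WT pair. Of all genes tested, 2.65% were called higher and 1.64% lower in the KO-labelled pair, and 3.86% and 8.59% in the WT pair. Of the remaining named genes, Lrrc8a, Gnai2, Itgb1 and Abhd16a had log2 differences between -0.61 and -0.12, and Abhd12 had 0.13 and 0.34 in the KO-labelled and the WT pair. The 11 homeostatic microglia genes taken for comparison had a median log2 difference of -0.83 in the KO-labelled pair, with 2 called lower, and -1.23 in the WT pair, with 7 called lower. Set beside these 11 genes, the all-gene shares called lower were the same 1.64% and 8.59%. All of the 11 but Csf1r were also gate markers.

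The genes most like each member were sought over 12 sums of class and library with at least 50 cells, by the Pearson correlation of log2(CPM + 10). These sums share libraries and differ in depth, and the correlations are descriptions. P2ry12 was most like Cst3 (r = 0.99), Cyfip1 and Siglech, the last a microglia marker of the gate. Gpr34 was most like Smap2 (r = 0.99), Cst3 and P2ry12 itself. P2ry13 was most like P4ha1 (r = 0.99), Gm15503 and Zfhx3. P2ry6 followed Lrmp (r = 0.99), Runx1 and Tlr7, and P2rx7 followed Hdac9 (r = 1.00), Slc16a7 and Mctp1. P2rx4 followed Ms4a6c (r = 0.97), Hacd4 and Spg21, of which Ms4a6c is a marker of the Lyz2/Ms4a7 class used in the gate. Adora3 followed Capn3 (r = 1.00), Spint1 and A830008E24Rik, and Entpd1 followed Arsk (r = 0.96), Camk2d and Tox4. Among the members themselves, P2ry12 and Gpr34 were closest (r = 0.98), while for P2rx4 and P2ry12 r was -0.04.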

How the data were processed

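The authors deposited raw UMI counts per gene and barcode. Cell Ranger 6.0.1 and mm10 are named in the submitters' processing notes. The deposited values are whole numbers, not normalized. The sources used here do not say whether counting used strand.

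Cells were required to have 500 genes and 1000 UMIs or more, with mitochondrial UMIs no higher than 10%. Scrublet scored doublets in each library, and the highest scored were left out at 0.8% per 1000 barcodes, 30 to 113 cells per library. A cell took the class with the highest mean marker level (log counts per 10000, each marker scaled to its 99th percentile) if at least 3 markers were detected and the lead was at least 0.05. Cells near that limit numbered 26 KO-labelled CVI, 11 KO-labelled sham, 96 WT CVI and 18 WT sham microglia. Leiden clusters (2000 variable genes without the members, 30 components, 15 neighbours, resolution 1) came from scanpy 1.11.5 and named no class in the main results.

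Counts were summed by class and library to CPM. Log2 ratios carried a prior of 10 CPM. A call needed 2-fold, at least 20 CPM in 1 library and at least 50 UMIs over the 4 libraries, and classes were compared with at least 50 cells each. No test was made with 1 library per group. Of the identifiers, 99.6% were in GENCODE vM21. The members, gene lists and alternatives were chosen with earlier results of these data known. Named genes were the members, listed pathway genes with at least 20 CPM in microglia of 1 library, and 3 pattern-like genes per member; clusters are named by their leading genes, and 1 cluster is not reported here by name.

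The code was tested on simulated counts.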

Additional observations from a re-analysis of the deposited data

Results flagged for a closer look

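In border macrophages 5 of the 7 members tested had opposite signs of the log2 difference after CVI in the KO-labelled and the WT pair, and the difference was not tested. Of all genes there, 2131 of 4201 were below 0 in the KO-labelled pair and 2210 of 4202 in the WT pair. The share of all genes with opposite signs was not counted, so the 5 are not read as particular to the members. The KO-labelled minus WT difference of the injury effects was log2 1.10 for P2ry12 (0.68 in the KO-labelled pair and -0.42 in the WT pair), -1.004 for P2ry13 (-0.48 and 0.52), -0.57 for Entpd1 (-0.57 and 0.0032), 0.48 for Gpr34 (0.08 and -0.40) and -0.44 for P2ry6 (-0.30 and 0.14). These rest on 28 to 109 UMIs per library. The ratio interval excluded 1 for P2ry12 in the KO-labelled pair, at 1.64 (1.17 to 2.32), where 1 CVI cell held 22 of 94 UMIs. Without that cell the ratio was 1.31 (0.915 to 1.89), whose interval includes 1, and with the highest cell of both libraries left out it was 1.48 (1.02 to 2.18). The interval included 1 for the other members and pairs named here.

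In microglia P2ry6 also had opposite signs in the 2 pairs, with a difference of log2 0.20 (0.05 in the KO-labelled pair and -0.16 in the WT pair), which was not tested either. The KO-labelled ratio interval included 1.

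Barcodes that failed the filters entered no comparison, numbered 1564 in KO-labelled CVI, 1290 in KO-labelled sham, 1735 in WT CVI and 3433 in WT sham, and hold no class labels. In them 3 members lay above both sham libraries in both CVI libraries. The same count was not made over all genes, so it is not read as particular to the members. Of the other members in the KO-labelled pair, Gpr34 had a ratio of 1.21 (1.11 to 1.32), Adora3 of 1.36 (1 lies inside its interval), Entpd1 of 1.08 (0.921 to 1.26) and P2ry13 of 0.859 (0.715 to 1.03), and P2ry12 was 1.28-fold lower, while in the WT pair all 5 were below sham. P2rx4 was at 124 CPM in KO-labelled CVI and 38.8 CPM in KO-labelled sham, and at 174 CPM in WT CVI and 44.0 CPM in WT sham, ratios of 3.19 and 3.96. P2ry6 had ratios of 3.08 in the KO-labelled pair and 1.29 in the WT pair. P2rx7 had ratios of 1.75 and 1.36 there, while in microglia that passed the filters it was below sham in both pairs.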

How the results depend on the processing

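No paired analysis was possible because each group is 1 library and no groups share 2 or more replicate numbers; no replicate could be left out. P2ry12, P2ry13, Entpd1, Gpr34, Adora3 and P2rx7 stayed below sham, and P2rx4 above sham, in microglia of both pairs under every other scaling, class definition, gate, cell filter, doublet handling, prior and sham library tried; inside single clusters, P2rx7 and Adora3 did not keep that direction. The log2 difference of P2ry12 lay between -1.15 and -0.81 in the KO-labelled pair and between -1.88 and -1.18 in the WT pair, and that of P2rx4 between 0.51 and 0.98 and between 0.77 and 1.29. Under median-of-ratios scaling 1 member (P2rx4) was called higher in the WT pair, in place of 0, and 1 (P2ry13) was called lower in the KO-labelled pair, in place of 2. Calls over all genes moved the same way: 503 were higher in the WT pair, in place of 241, and 36 lower in the KO-labelled pair, in place of 101. With cells weighted equally, 73 genes were lower in the KO-labelled pair. With every cell weighted equally 1 member (P2ry13) was called lower in the KO-labelled pair, and against the KO-labelled sham library 1 (P2rx4) was called higher after CVI in WT. With no doublet removal and with a prior of 1 CPM 3 members (Entpd1 added) were called lower in the KO-labelled pair, and 4 (Gpr34 added) were called lower in WT CVI against the KO-labelled sham library. With classes taken from named clusters, 5 members were higher in microglia than in border macrophages of the WT CVI library, in place of 3. For the doublet, prior, sham library and cluster settings no all-gene counts are given here, so those member counts are not read as particular to the members. The cause of these changes was not tested. P2ry6 in the WT pair and, against border macrophages, P2ry13, Entpd1 and P2ry6 in CVI libraries changed sign under at least 1 alternative. Leaving out barcodes shared between libraries, the values within clusters and P2ry12 without the highest cell were added after the data were seen. Border macrophages held at most 2 Adora3 UMIs per library, so no difference of Adora3 between groups could be read there.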
